A study of Mus musculus with 12 samples.

Results

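Hair shaft and inner root sheath genes were compared in scars of 12 mice, as 30 of the 35976 genes in the count files. They were found by symbol in a list of 31 genes that encode keratins and other structural proteins of the hair, and 1 gene of that list is not analysed here. The 30 genes are 23 keratins and 7 other proteins, and all of them passed the filter on low counts that left 18853 genes to test.

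The scars came from male mice aged 8 to 12 weeks on the C57BL/6J background, with 3 mice in each of 4 groups. In all groups the hair of the back skin was removed, a 1.5-cm wound was made and a plastic device was placed on it at day 6. Tem1WT/WT sham mice carried the device without elongation, and in Tem1WT/WT traction mice it was elongated by 1 mm per day to 8 mm. Tem1lacZ/lacZ sham and Tem1lacZ/lacZ traction mice were handled in the same way and carry a lacZ reporter in place of the exon of Tem1, so the gene is missing in every cell type and its loss cannot be assigned to a particular cell. A part of each scar was sequenced, with whatever skin and hair follicles it held, and each library is a different mouse.

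A hair grows from the base of its follicle as concentric cylinders of dying, keratin-filled cells. The cuticle, cortex and medulla form the hair shaft, the inner root sheath moulds it and then breaks down, and the companion layer lies between that sheath and the outer root sheath. Keratin filaments are built from pairs of a type I and a type II keratin, and each cylinder has its own set. These genes are active in follicles that are growing a hair and nearly silent in resting ones, so in skin they also follow the hair cycle.

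All 23 keratins lie in the keratin clusters of the mouse genome (GRCm38, GENCODE annotation). The 13 type I genes are on chromosome 11, from Krt25 to Krt40 at chr11:99315516-99543158 and from Krt33a to Krt36 at chr11:100011195-100105626. The 10 type II genes are on chromosome 15, from Krt81 to Krt73 at chr15:101459061-101802346. RefSeq promoters of GRCm38.p6, from 250 bases before to 50 bases after a transcription start, were at hand for 23 of the 30 genes, as 26 windows. The TATA motif TATAAA, searched on both strands, was found in 17 of these 26 windows (65.4%) and in 13.6% of all 32851 windows of the same length. CTTTGA, a core that LEF and TCF factors bind, was found in 8 of them (30.8%, against 16% of all windows), and GACGC, bound by the hair regulator FOXN1, in 3 (11.5%, against 27.2%). The AP-1 motif TGACTCA was in 0 of them and in 5.20% of all windows, and none of these motifs contains another.

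The 120 bases before the start are shown for 4 inner root sheath keratins that the results return to, for the hair keratin Krt33b, and for Hephl1, which of these 6 changed least with traction in Tem1WT/WT mice. They are written 5′ to 3′ on the strand of the gene, which is the minus strand in all 6, with matches to TATAAA or its reverse complement TTTATA in capitals.
Krt25, chr11:99322952-99323071: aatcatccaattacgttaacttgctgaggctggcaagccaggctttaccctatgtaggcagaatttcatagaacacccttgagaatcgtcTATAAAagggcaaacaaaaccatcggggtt
Krt26, chr11:99337966-99338085: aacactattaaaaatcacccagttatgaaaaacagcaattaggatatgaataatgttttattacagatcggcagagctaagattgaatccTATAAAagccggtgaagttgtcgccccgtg
Krt33b, chr11:100029869-100029988: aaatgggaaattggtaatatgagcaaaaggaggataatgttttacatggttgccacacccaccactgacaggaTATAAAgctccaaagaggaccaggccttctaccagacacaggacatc
Krt71, chr15:101743098-101743217: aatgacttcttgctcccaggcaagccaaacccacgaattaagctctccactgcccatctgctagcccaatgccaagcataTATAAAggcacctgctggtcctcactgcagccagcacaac
Krt72, chr15:101786521-101786640: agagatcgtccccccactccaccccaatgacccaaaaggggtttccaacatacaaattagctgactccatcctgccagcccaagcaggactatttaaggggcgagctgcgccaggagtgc
Hephl1, chr9:15112109-15112228: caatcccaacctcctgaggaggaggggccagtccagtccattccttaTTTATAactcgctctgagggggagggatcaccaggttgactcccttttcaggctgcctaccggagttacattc
The match began 30 bases before the start in Krt25 and in Krt26, 40 bases before it in Krt71, 47 in Krt33b and, on the opposite strand, 73 in Hephl1. In Krt72 the 120 bases hold no match, and the match counted above lies elsewhere in its window. A match of letters is a description of the sequence, and no binding was measured in these scars.

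The libraries held 41536788 to 64644293 counts each (median 48173798). The 30 genes had from 23 (Krt74) to 908829 counts (Tchh) in a library. The common biological coefficient of variation between mice was 34.2%, estimated over all genes tested and not for these 30 genes. Counting error weighs most in Krt74, Krt39 and Krt40, whose lowest libraries held 23, 40 and 59 counts, while the other 27 genes had at least 115 in every library. Cd248, the symbol of Tem1, had 3883 to 16413 counts in each Tem1WT/WT library and 0 to 13 in each Tem1lacZ/lacZ library. Levels are given in CPM, counts scaled by the TMM method to a common library size, and a gene was called changed at an adjusted p under 0.05 in edgeR. Values after ± are SDs of 3 mice.

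The 30 genes took a large and variable part of these transcriptomes. Their share of all counts was 1.98%, 3.53% and 1.84% in the 3 Tem1WT/WT sham scars and 0.420%, 0.848% and 0.429% in the Tem1WT/WT traction scars. In Tem1lacZ/lacZ mice it was 0.491%, 2.69% and 1.56% in the sham scars and 1.66%, 1.41% and 0.967% in the traction scars. Each Tem1WT/WT traction scar thus lay below each Tem1WT/WT sham scar and below each Tem1lacZ/lacZ traction scar. Replicate 1 of the Tem1lacZ/lacZ sham group stood apart from the other sham scars, at a level within the range of the Tem1WT/WT traction group. In these scars, fewer hair-forming cells and less RNA per cell cannot be told apart.

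**Figure D1:**
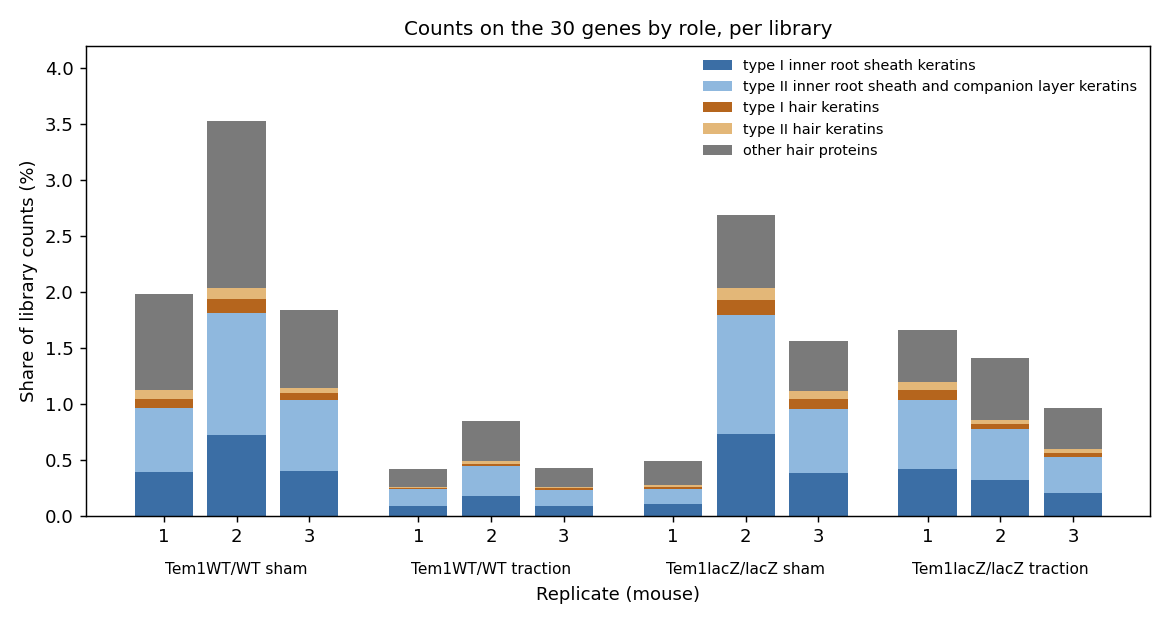
Share of all counts in a library (%, y axis) taken by the 30 genes, stacked by role, for each of the 12 mice (x axis, 3 replicates per group). The Tem1WT/WT traction scars lie between 0.420% and 0.848%, and all other scars above 0.848% except replicate 1 of the Tem1lacZ/lacZ sham group at 0.491%.

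Per length of exon, the genes of the inner root sheath were at the top of the order. In the Tem1WT/WT sham group Krt71, the main type II keratin of the sheath, had 2726 ± 978 CPM per kilobase. Trichohyalin (Tchh), the protein that fills and hardens inner root sheath and medulla cells, had 1557 ± 622 CPM per kilobase, and the type I keratins Krt25 and Krt27 had 1223 ± 539 and 1073 ± 313. The neighbours Tchh, Krt25 and Krt27 differed by less than their SDs. Krt28 (271 ± 94.4), Krt73 (266 ± 124) and Krt72 (194 ± 50.1), other keratins of the sheath, followed at a lower level per kilobase. The highest hair shaft keratins were Krt83 at 150 ± 52.6, Krt33a at 111 ± 37.6 and Krt35 at 101 ± 62.7 CPM per kilobase, and each differed from the next by less than the larger of their SDs. The lowest of all were Krt39 at 4.91 ± 1.60 and Krt74 at 4.25 ± 1.97. Tchh held the most counts of the 30 genes in 9 of the 12 libraries and Krt71 in the other 3.

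**Figure D2:**
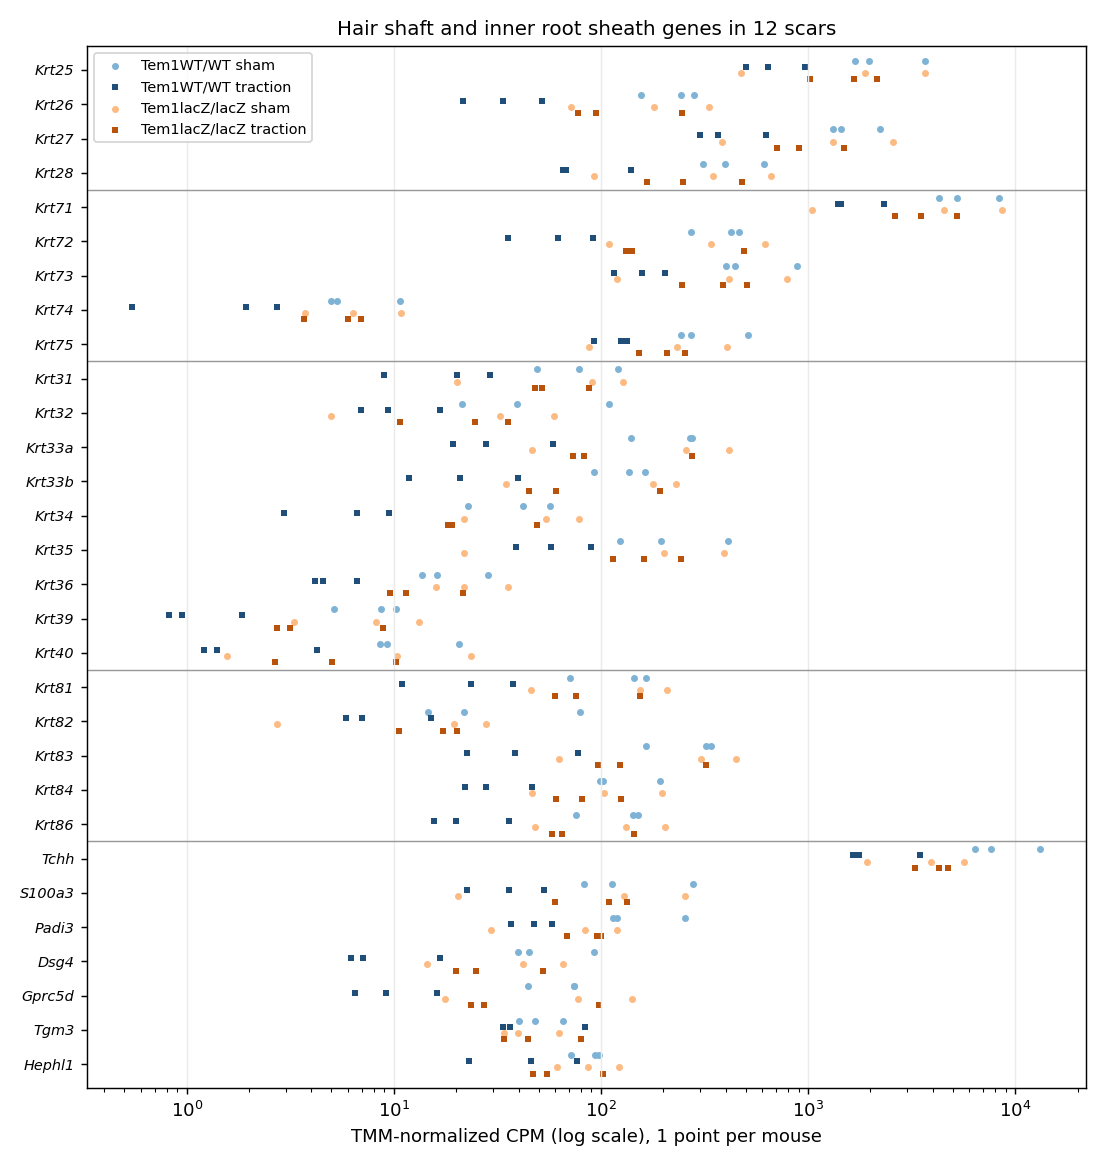
TMM-normalized CPM (x axis, log scale) of each of the 30 genes (y axis) in each of 12 scars, with circles for sham, squares for traction, blue for Tem1WT/WT and orange for Tem1lacZ/lacZ mice. In 27 genes all Tem1WT/WT traction scars lie below all Tem1WT/WT sham scars, and Krt82, Tgm3 and Hephl1 are the ones where these groups overlap.

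The first comparison asks what traction on the wound does to the scar of Tem1WT/WT mice. Hair shaft and inner root sheath genes were lower with traction. Of the 30 genes, 11 fell and 0 rose, where 3.54% of all genes tested were called lower and 5.61% higher. The 11 genes were the inner root sheath keratins Krt26 and Krt72, the hair keratins Krt34, Krt36, Krt39, Krt81, Krt84 and Krt86, and Tchh, Padi3 and Dsg4, with adjusted p from 0.0312 to 0.0418. The groups did not overlap, with traction lower, in 27 of the 30 genes and in 18% of all genes tested, and 28 of the 30 against 14.7% were lower at an unadjusted p under 0.05. The median log2 fold change of the 30 genes was −2.09, with a range from −2.73 to 0.00, and that of all genes tested was −0.01. The study itself named Krt25, Krt27, Krt36, Krt71 and Krt84 from these same libraries. The other genes come from these libraries too, so the direction of none of the 30 is independent evidence.

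The number of calls depended on single libraries. It was 0 without replicate 1 or replicate 2 of the Tem1WT/WT sham group (0% of all genes called lower), without replicate 1 or replicate 3 of the Tem1WT/WT traction group (0.418% and 0.576% of all genes), or without replicate 3 of the Tem1lacZ/lacZ sham group (0.238%). It was 24 without replicate 1 of the Tem1lacZ/lacZ sham group (2.6%) and 19 without replicate 2 of the Tem1WT/WT traction group (6.61%). Without replicates 2 and 3 of the Tem1lacZ/lacZ traction group it was 6 and 7 (1.95% and 1.85%). DESeq2 called 28 of the 30 genes lower, with 9.62% of all genes, and limma-voom 2, with 0.674%. Without the filter on low counts edgeR called 3 (1.51% of all genes), and with only the 6 libraries of these groups it called 0, as for all genes. The median log2 fold change of the 30 genes stayed between −2.54 and −1.65 over all 21 alternative settings, and 29 or 30 of them were negative in each (50.6% of all genes in the fit reported here), Tgm3 being the only gene whose sign turned. The fold changes of 5 genes moved by more than 1.5 times with 1 library left out. Without replicate 2 of the Tem1WT/WT sham group the log2 fold change was −1.44 in place of −2.36 in Krt32, −1.34 in place of −1.97 in Krt35, −0.94 in place of −2.05 in Krt82 and −1.39 in place of −2.09 in S100a3. Without replicate 2 of the Tem1WT/WT traction group it was −3.29 in place of −2.49 in Krt40, and none of these 5 genes was among the 11 called.

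Among the type I keratins of the inner root sheath, 1 of 4 fell and the median log2 fold change was −2.11. Krt25, which is made in every layer of the sheath, had 1676, 3659 and 1960 CPM in the Tem1WT/WT sham scars and 638, 965 and 504 CPM in the traction scars. Each sham scar lay above each traction scar, but the change (−1.79 on the log2 scale, standard error 0.62) did not pass the test in edgeR (adjusted p = 0.0809). Krt27, a similar keratin of the sheath, had 1323, 2220 and 1447 CPM with sham and 302, 624 and 367 CPM with traction (log2 fold change −1.95, standard error 0.58, adjusted p = 0.0575 in edgeR). Krt26, a keratin of the cuticle of the inner root sheath, fell from 243, 282 and 156 CPM to 33.5, 51.9 and 21.5 CPM. Its log2 fold change was −2.67 (standard error 0.60, adjusted p = 0.0329 in edgeR). The groups did not overlap in any of the 4 genes, Krt28 included.

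Of their type II partners and the companion layer keratin 1 of 5 fell, with a median log2 fold change of −1.86. Krt71, whose mutations give mice a wavy coat, had 4286, 8370 and 5223 CPM with sham and 1437, 2313 and 1400 CPM with traction. Its log2 fold change was −1.80 (standard error 0.61, adjusted p = 0.0780 in edgeR). Krt73, a keratin of the cuticle of the sheath, had 402, 887 and 442 CPM with sham and 157, 204 and 116 CPM with traction (log2 fold change −1.86, standard error 0.58, adjusted p = 0.0638 in edgeR). Krt72, another keratin of that cuticle, was the 1 gene called, and fell by 2.61 on the log2 scale (standard error 0.68, adjusted p = 0.0416 in edgeR). Krt75, the keratin of the companion layer, had the smallest change of the 5, −1.56 (standard error 0.48), and its groups did not overlap either.

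Of the type I hair keratins, which fill the cortex and cuticle of the shaft, 3 of 9 fell and the median log2 fold change was −2.44. Krt36 had the smallest adjusted p of all 30 genes, with 13.7, 28.3 and 16.1 CPM in the Tem1WT/WT sham scars and 4.16, 6.62 and 4.54 CPM in the traction scars (log2 fold change −1.92, standard error 0.41, adjusted p = 0.0312 in edgeR). Krt34 fell from 56.7, 42.1 and 22.9 CPM to 2.95, 9.45 and 6.64 CPM (log2 fold change −2.67, standard error 0.61, adjusted p = 0.0329 in edgeR). Krt39, a keratin of the upper shaft, had the largest fall of the 30 genes, from 10.3, 8.63 and 5.16 CPM to 0.952, 1.85 and 0.822 CPM (log2 fold change −2.73, standard error 0.61, adjusted p = 0.0329 in edgeR). In all these genes the sham scars lay well above the traction scars. Krt33a of the cortex had 270, 276 and 139 CPM with sham and 19.3, 58.8 and 27.9 CPM with traction, a change as large as that of Krt34 that did not pass the test (log2 fold change −2.69, standard error 0.78, adjusted p = 0.0530 in edgeR). Krt35, one of the earliest keratins of the shaft, made in the matrix and lower cortex, had 123, 411 and 194 CPM with sham and 38.8, 89.8 and 57.5 CPM with traction (log2 fold change −1.97, standard error 0.80, adjusted p = 0.122 in edgeR). The 9 genes did not overlap between the groups.

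Of the type II hair keratins, 3 of 5 fell and the median log2 fold change was −2.36. Krt83 of the cortex had 322, 341 and 164 CPM with sham and 22.6, 77.4 and 38.6 CPM with traction (log2 fold change −2.58, standard error 0.73, adjusted p = 0.0506 in edgeR). Krt81 fell from 144, 166 and 70.8 CPM to 10.99, 37.6 and 23.6 CPM (log2 fold change −2.40, standard error 0.62, adjusted p = 0.0415 in edgeR). Krt86 fell from 142, 151 and 76.1 CPM to 15.6, 36.1 and 20.01 CPM (log2 fold change −2.36, standard error 0.56, adjusted p = 0.0349 in edgeR). Krt81 and Krt86 share exact stretches of 150 bases, in 15.4% of the windows of that length in Krt81 and 14.4% of those in Krt86, and a further 1.24% of those in Krt81 are shared with Krt87, while 6.35% of the windows in Krt31 and 9.52% of those in Krt33a are shared within the trio of Krt31, Krt33a and Krt34, so reads could be split between these genes. Krt82, a keratin of the shaft cuticle, was the keratin whose groups overlapped, with 14.7, 79.5 and 21.7 CPM with sham and 7.02, 15.2 and 5.90 CPM with traction.

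The 7 other proteins were less uniform, with 3 called lower and a median log2 fold change of −1.98. Tchh fell from 7641, 13185 and 6371 CPM to 1653, 3469 and 1758 CPM (log2 fold change −1.98, standard error 0.45, adjusted p = 0.0329 in edgeR). Padi3, the enzyme that turns arginines of trichohyalin into citrulline, fell with it, with a log2 fold change of −1.78 (standard error 0.46). Dsg4, the desmosomal cadherin that joins the cells of the shaft, fell by 2.56 on the log2 scale (standard error 0.62). S100a3, a calcium-binding protein of the hair cuticle, had 83.2, 277 and 113 CPM with sham and 22.4, 53.0 and 36.0 CPM with traction (log2 fold change −2.09, standard error 0.76, adjusted p = 0.0916 in edgeR). Gprc5d, an orphan receptor of hair-forming cells, had a log2 fold change of −2.60 that was not called. The exons of Krt32 and Krt75 overlap another annotated gene on the opposite strand, and reads of the overlap cannot be assigned where the strand was not used. Those of S100a3 overlap 1 gene on the opposite strand and 1 on the same strand, so its reads of the overlap are uncertain with or without strand.

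The other 2 proteins differed least between the groups. Tgm3, a transglutaminase that cross-links trichohyalin and is also made in the upper epidermis, had 40.1, 65.4 and 48.0 CPM with sham and 83.8, 33.7 and 36.3 CPM with traction, so the groups overlapped. Its log2 fold change was 0.00 (standard error 0.41, adjusted p = 0.998 in edgeR), and its sign turned in several alternative settings. Hephl1, a copper-dependent ferroxidase needed for normal hair and whiskers, had 93.7, 97.5 and 71.7 CPM with sham and 76.5, 46.0 and 23.0 CPM with traction, and its change was −0.85 on the log2 scale (standard error 0.42, adjusted p = 0.194 in edgeR). In both genes the highest traction value was in replicate 1, the scar in which the summed CPM of 13 neutrophil genes was 8007, against 713 and 353 in replicates 2 and 3 and 119 to 125 in the Tem1WT/WT sham scars. The part of this difference between scars in the values of Tgm3 and Hephl1 was not tested. Tgm3, Hephl1 and the keratins outside the naming rule were singled out after their values were seen.

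**Figure D3:**
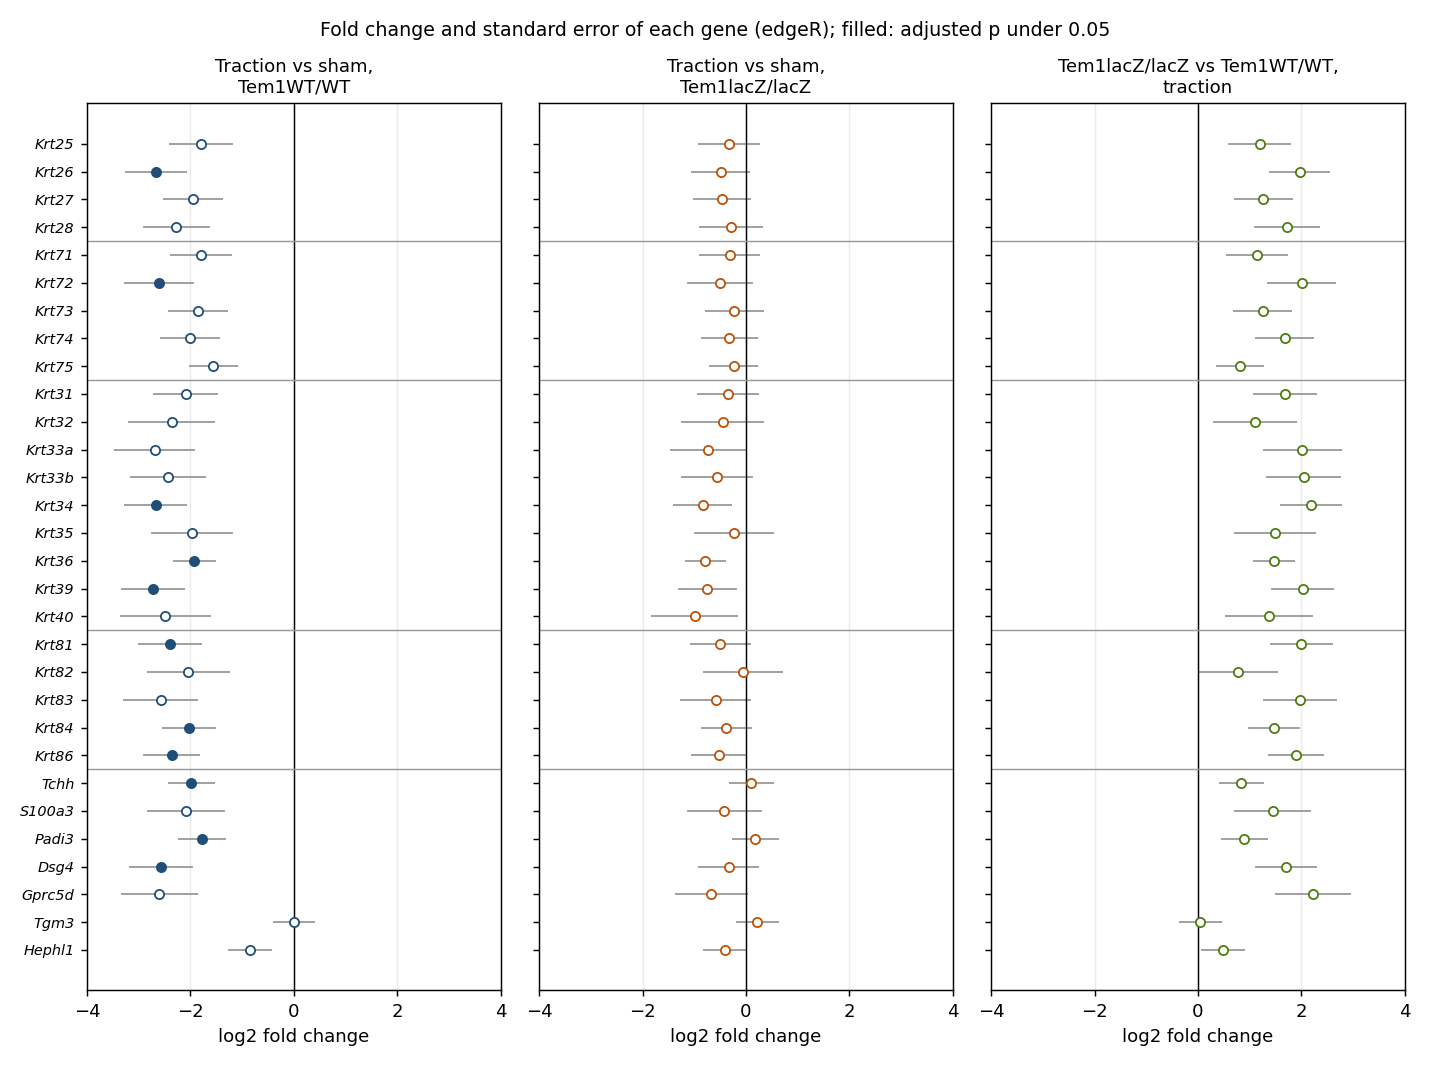
log2 fold change (x axis) with its standard error for each of the 30 genes (y axis) in edgeR, for traction against sham in Tem1WT/WT mice, traction against sham in Tem1lacZ/lacZ mice, and Tem1lacZ/lacZ against Tem1WT/WT mice with traction; filled points have an adjusted p under 0.05. The 11 filled points are all in the first panel, whose median is −2.09, against −0.41 and 1.48 in the others, and Tgm3 lies near 0 in all of them with a sign that depends on the setting.

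The second comparison asks the same question in Tem1lacZ/lacZ mice. With traction against sham, 0 of the 30 genes were called in edgeR, 0 had an unadjusted p under 0.05, and DESeq2 and limma-voom also called 0 of them. An unadjusted p under 0.05 was found in 4 genes without replicate 1 of the Tem1lacZ/lacZ traction group. It was found in 1 gene without replicate 1 of the Tem1lacZ/lacZ sham group and in 4 with limma-voom. The share of all genes in these settings was not worked out. In the fit reported here edgeR called 0% of all genes tested, and 2.46% were lower and 5.66% higher at an unadjusted p under 0.05. The median log2 fold change was −0.41, with 27 genes and 51.5% of all genes negative, and it ranged from −0.99 in Krt40 to 0.22 in Tgm3. The groups overlapped in every one of the 30 genes, where 6.16% of all genes did not overlap with traction lower and 6.77% with traction higher. Krt71 had 1047, 8585 and 4524 CPM in the Tem1lacZ/lacZ sham scars and 5226, 3525 and 2622 CPM in the traction scars, a log2 fold change of −0.32 with a standard error of 0.59. Krt33a had 46.6, 413 and 256 CPM with sham and 274, 73.1 and 83.1 CPM with traction (−0.74, standard error 0.73), and Tchh had 1928, 5637 and 3905 CPM and 4284, 4749 and 3292 CPM (0.10, standard error 0.43). The low scar in each sham group of values is replicate 1. The median of the 30 genes became −0.81 without that scar and 0.21 without replicate 2 of the same group, so its direction was not fixed by these mice.

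Whether traction acted differently in the 2 genotypes was tested as the interaction of genotype and traction. None of the 30 genes passed (0 in edgeR with a smallest adjusted p of 0.548, 0 in DESeq2 and 0 in limma-voom), and edgeR called 0% of all genes tested. All 30 interaction terms were positive, the direction of a smaller fall in Tem1lacZ/lacZ mice, as were 49.8% of all genes tested. Their median was 1.84 on the log2 scale, between 1.29 and 2.43 when each library was left out in turn. At an unadjusted p under 0.05, 11 of the 30 genes and 4.46% of all genes tested were positive. This count depended on single libraries. It was 2 without replicate 1 of the Tem1lacZ/lacZ traction group (5.26% of all genes) and 26 without replicate 2 of the Tem1lacZ/lacZ sham group (5.08%). It was 7 and 3 without replicates 1 and 2 of the Tem1WT/WT sham group, 6 and 5 without replicates 1 and 3 of the Tem1lacZ/lacZ sham group, and 4 without replicate 1 or replicate 3 of the Tem1WT/WT traction group. DESeq2 gave 18 and limma-voom 3. For the counts without a share of all genes beside them that share was not worked out, so they show only how the count varied. The terms of Tchh (2.09, standard error 0.62, unadjusted p = 0.00613 in edgeR) and Padi3 (1.97, standard error 0.64) were large against their errors, and that of Dsg4 was the largest (2.23, standard error 0.84). None of these passed the adjusted threshold, so a difference between the genotypes in the effect of traction was not shown for any single gene. The study selected genes by its own interaction analysis of these libraries. It reported that Tem1 deletion abolished the fall of the clusters that hold Krt25, Krt27, Krt36, Krt71 and Krt84.

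The third comparison sets Tem1lacZ/lacZ traction against Tem1WT/WT traction and shares the latter scars with the first. All 30 genes were higher in Tem1lacZ/lacZ mice, as were 51% of all genes tested, with a median log2 fold change of 1.48 and a range from 0.05 in Tgm3 to 2.23 in Gprc5d. None of them was called in edgeR (0 of 30, smallest adjusted p = 0.0951), where 0.0106% of all genes were called higher and 0.0955% lower, while 17 of the 30 and 11.1% of all genes were higher at an unadjusted p under 0.05. The count of 17 became 7 without replicate 1 of the Tem1lacZ/lacZ traction group (7.15% of all genes) and 11 without replicate 1 of the Tem1WT/WT traction group (10.1%). It became 4 with limma-voom, where the share of all genes was not worked out. DESeq2 called 16 of the 30 higher, with 4.61% of all genes, and limma-voom 0. The groups did not overlap in 24 of the 30 genes and in 12.9% of all genes. Krt34 had 49.3, 18.2 and 19.1 CPM in the Tem1lacZ/lacZ traction scars, each above the Tem1WT/WT traction scars given above (log2 fold change 2.18, standard error 0.60, adjusted p = 0.0951 in edgeR). Krt36 had 21.6, 11.5 and 9.58 CPM (1.47, standard error 0.41, adjusted p = 0.0951 in edgeR) and Krt26 had 246, 94.3 and 77.4 CPM (1.96, standard error 0.59, adjusted p = 0.0986 in edgeR). Krt71 lay closer, with a log2 fold change of 1.14 (standard error 0.60), and its groups did not overlap. With each of the 12 libraries left out in turn the median stayed between 1.17 and 1.97. In these settings the log2 fold change was 1.29 to 2.66 in Gprc5d, 1.30 to 2.34 in Krt26 and 1.59 to 2.58 in Krt34. Tgm3 was negative without replicate 2 or replicate 3 of the Tem1WT/WT traction group or replicate 1 of the Tem1lacZ/lacZ traction group.

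The fourth comparison, Tem1lacZ/lacZ sham against Tem1WT/WT sham, gives the difference between genotypes in scars without traction. In edgeR 0 of the 30 genes were called, with 0.0053% of all genes called lower, and DESeq2 and limma-voom called 0 of the 30. The median log2 fold change was −0.18, with 21 genes negative and 9 positive, where 51.4% of all genes were negative. It was 0.24 without replicate 1 of the Tem1lacZ/lacZ sham group, 0.17 without replicate 2 of the Tem1WT/WT sham group and −0.85 without replicate 2 of the Tem1lacZ/lacZ sham group, so these values give no direction. Tchh and Padi3 were the genes with an unadjusted p under 0.05. They are 6.67% of the 30, about the same as the 6.62% of all genes in that direction. The number of such genes was 0 without replicate 2 of the Tem1WT/WT sham group or replicate 1 of the Tem1lacZ/lacZ sham group. It was 3 without replicate 2 of the Tem1lacZ/lacZ sham group, and the share of all genes in these settings was not worked out. Tchh had −1.25 on the log2 scale (standard error 0.44, adjusted p = 0.409 in edgeR). It was the 1 gene of the 30 whose Tem1lacZ/lacZ sham scars all lay below its Tem1WT/WT sham scars, where 13.8% of all genes did so. Padi3 had −1.07 (standard error 0.45, adjusted p = 0.418 in edgeR).

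Across the 12 scars the genes moved together. For log2 CPM, Pearson's r of a gene with the mean of the other members was between 0.812 and 0.996 for 28 of the 30 genes, and Hephl1 (0.732) and Tgm3 (0.279) were lower. Krt28 was closest to the mean of the others (0.996), followed by Krt27 (0.990) and Krt84 (0.989). The median r over pairs of genes was 0.893. These are descriptions over 12 libraries that include the groups compared above, and the points share library and scaling.

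Within that common movement, the make-up of the hair transcripts differed between scars. The ratio of Krt71 to Krt25 counts, a type II and a type I keratin of every layer of the sheath, was between 2.12 and 2.78 in all 12 scars, while the level of each varied several-fold. The ratio of Krt71 to Krt72, which is restricted to the cuticle of the sheath, was 23.2, 25.1 and 39.3 in the Tem1WT/WT traction scars. It was 9.28, 19.7 and 19.1 in the Tem1WT/WT sham scars, 9.53, 13.8 and 13.3 in the Tem1lacZ/lacZ sham scars and 10.7, 25.1 and 19.9 in the Tem1lacZ/lacZ traction scars. The ratio of Krt71 to Krt73, also a keratin of that cuticle, did not follow this order, at 9.13, 11.3 and 12.1 in the Tem1WT/WT traction scars, 10.7, 9.44 and 11.8 in the Tem1WT/WT sham scars and 8.72 to 12.1 over all 12. The ratio of Krt25 to Krt26, a further keratin of the cuticle, was 18.6 to 23.4 in the Tem1WT/WT traction scars and 6.62 to 17.6 in the other 9. These ratios of counts are not scaled by length and show only unequal change. The pairs were chosen after their values were seen and were not tested.

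**Figure D4:**
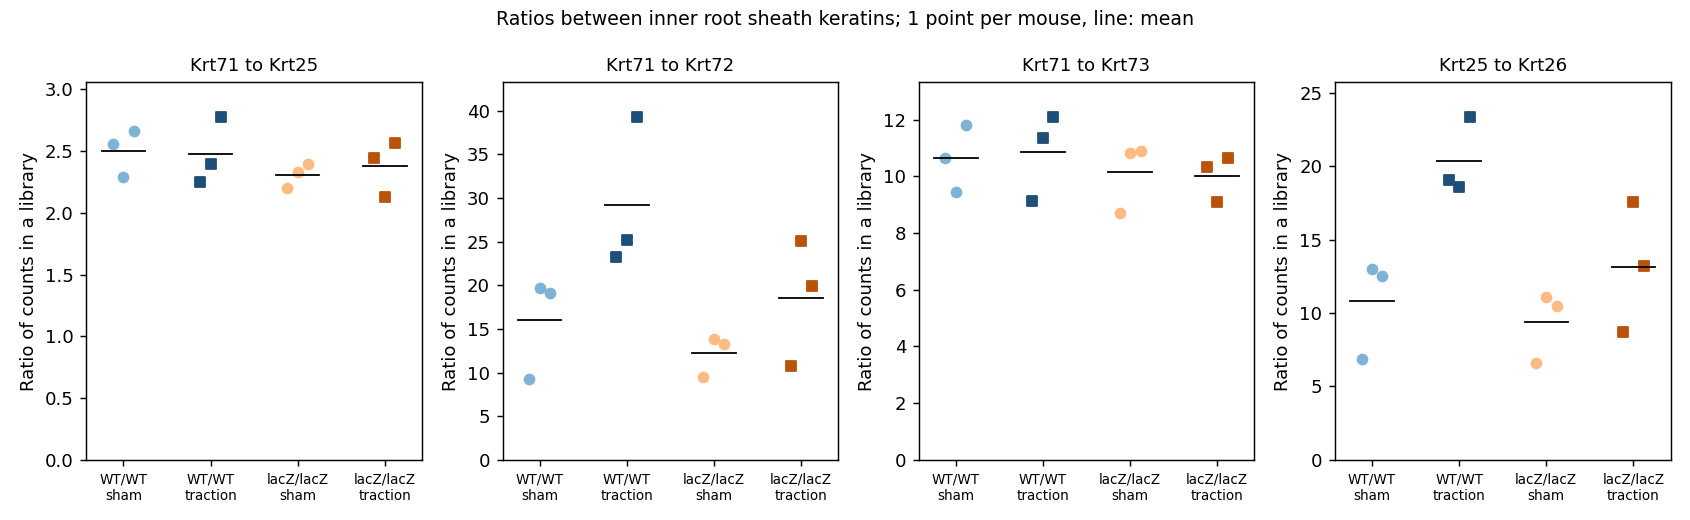
Ratio of counts (y axis) of Krt71 to Krt25, Krt71 to Krt72, Krt71 to Krt73 and Krt25 to Krt26 in each library, with 3 mice per group (x axis) and the group mean as a line. The ratios of Krt71 to Krt25 and to Krt73 stay between 2.12 and 2.78 and between 8.72 and 12.1, while the Tem1WT/WT traction scars have the highest values of Krt25 to Krt26, 18.6 to 23.4.

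The part of the 30 genes' counts taken by the shaft keratins was also compared with traction and sham in Tem1WT/WT mice. Type I hair keratins made up 2.00%, 2.95% and 3.07% of these counts in the Tem1WT/WT traction scars and 3.86%, 3.57% and 3.18% in the sham scars, so each traction scar lay below each sham scar. Type II hair keratins made up 1.60%, 2.45% and 2.43% with traction and 3.90%, 2.80% and 2.42% with sham, and these groups overlapped. With 3 scars a group an exact permutation test could not pass the threshold, and none was run.

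Other genes of the hair follicle were read beside the list. Of 53 tested keratin-associated protein genes, the matrix proteins in which the keratin filaments of the shaft are embedded, 24 fell with traction in Tem1WT/WT mice and 0 rose, with a median log2 fold change of −2.36, where 3.54% of all genes were called lower. Krtap7-1 was among those called (log2 fold change −2.45, standard error 0.68, adjusted p = 0.0494 in edgeR), and Krtap11-1 was not (−2.61, standard error 0.81, adjusted p = 0.0628 in edgeR). Their summed level was 894 to 1390 CPM in the sham and 124 to 325 CPM in the traction scars. Of 25 hair regulators, transcription factors and signals that drive the follicle, 6 fell and 0 rose, with a median of −1.30, but the study had named 9 of these from the same libraries. Vdr, the vitamin D receptor, needed for the hair cycle, fell by 0.92 on the log2 scale (standard error 0.23), and Cux1, a regulator of the inner root sheath, had −0.10 (standard error 0.29). Of 10 bulge and isthmus genes 2 fell, Krt15 of the stem cell bulge (−2.64, standard error 0.59) and Krt79 of the isthmus (−1.39, standard error 0.36). These counts depended on single libraries as those of the 30 genes did. In each of these 3 lists 0 genes were called without replicate 1 or replicate 2 of the Tem1WT/WT sham group or with only the 6 libraries compared. The count of keratin-associated protein genes was also 2 and 3 without replicates 1 and 3 of the Tem1WT/WT traction group, 3 without replicate 3 and 39 without replicate 1 of the Tem1lacZ/lacZ sham group, and 14 without replicate 3 of the Tem1WT/WT sham group. That of the regulators was 1 and 2 without replicates 1 and 3 of the Tem1WT/WT traction group, 1 without replicate 3 of the Tem1lacZ/lacZ sham group and 3 without replicate 3 of the Tem1lacZ/lacZ traction group. That of the bulge and isthmus genes was between 0 and 2 with each library left out in turn. DESeq2 called 48, 17 and 3 genes of the 3 lists lower, and limma-voom 9, 0 and 1.

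**Figure D5:**
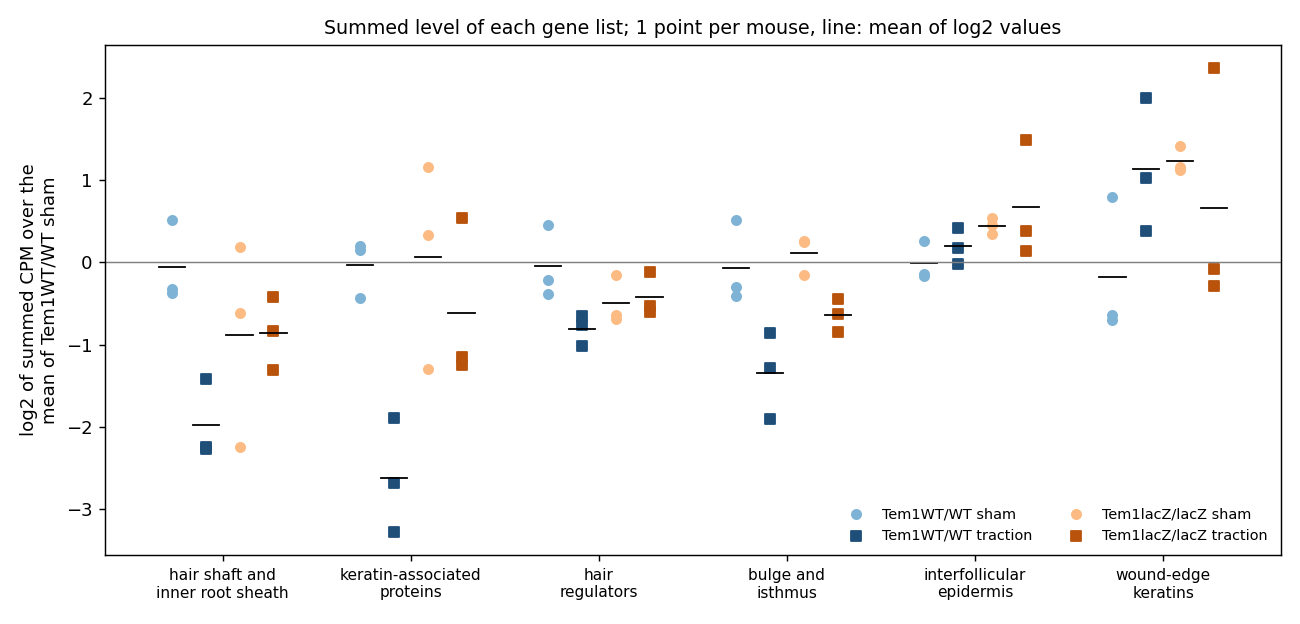
Summed CPM of each gene list in each scar, as log2 over the mean of the Tem1WT/WT sham group (y axis), for the 30 hair genes and 5 other lists (x axis), with 1 point per mouse and the mean of the log2 values as a line. The Tem1WT/WT traction scars are lowest in the keratin-associated proteins, 124 to 325 CPM, while the sum for interfollicular epidermis, in which abundant genes weigh most, is 16537 to 22487 CPM in these scars and 14946 to 20104 CPM with sham, although 12 of its 16 genes had a negative log2 fold change.

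Genes of other cell types moved with the hair genes in part. Counts at an unadjusted p under 0.05 below are in either direction, where 31.4% of all genes tested had such a p. Of 16 interfollicular epidermis genes 0 were called in edgeR in Tem1WT/WT mice (7 at an unadjusted p under 0.05). Their median log2 fold change was −0.70 with a range from −2.82 to 1.00, and 12 of the 16 were negative. In 5 the groups did not overlap with traction lower, against 0 with traction higher. Of all 18853 genes tested, 3388 did not overlap with traction lower and 3335 with traction higher. Their summed level, which the most abundant genes dominate, was 14946 to 20104 CPM with sham and 16537 to 22487 CPM with traction. The 2 highest genes of the list were among the 4 that were positive. Krt14, a keratin of the basal layer, had a log2 fold change of 1.00 (standard error 0.68) and Krt5, its partner, 0.14 (standard error 0.29). Of 10 melanocyte genes 2 fell, with a median of −1.71, and of 10 sebaceous gland genes 3 fell, with a median of −1.13, where 3.54% of all genes were called lower and 5.61% higher. Of 10 dermal papilla genes 0 were called (median −0.65, 4 at an unadjusted p under 0.05), and of 10 cell division genes 0 (median 0.03, 2 at an unadjusted p under 0.05). Of 4 wound-edge keratins 0 were called (median 1.82), with 1 at an unadjusted p under 0.05. Of 11 tested neutrophil genes 6 rose (median 4.70), and of 10 dermal fibroblast genes 2 rose (median 0.80), their summed level being 28054 to 44585 CPM with sham and 46435 to 117973 CPM with traction. Of 12 skeletal muscle genes 0 were called (median −2.91), with 11 at an unadjusted p under 0.05. Their summed level was 17531, 4571 and 1680 CPM in the Tem1WT/WT sham scars and 2595, 442 and 477 CPM in the Tem1WT/WT traction scars. The calls of the melanocyte, sebaceous gland, neutrophil and dermal fibroblast lists were all lost, to 0, without replicate 1 or replicate 2 of the Tem1WT/WT sham group and with only the 6 libraries compared. Without each other library in turn, 0 to 2 melanocyte and 0 to 7 sebaceous gland genes were called lower. In the same settings 2 to 6 neutrophil and 0 to 4 dermal fibroblast genes were called higher. limma-voom called 3 neutrophil genes and 0 melanocyte, sebaceous gland and dermal fibroblast genes. DESeq2 called 3 melanocyte and 6 sebaceous gland genes lower, and 1 sebaceous gland, 3 neutrophil and 5 dermal fibroblast genes higher. Of the lists with 0 calls, DESeq2 called 5 epidermis genes, 1 cell division gene and 8 skeletal muscle genes lower, 2 dermal papilla genes lower and 2 higher, and 1 wound-edge keratin higher, and limma-voom called 1 skeletal muscle gene lower. Other edgeR settings also gave calls in these lists. Skeletal muscle had 6 genes lower with the replicate block and 4 with upper quartile normalization. It had 5 without replicate 3 of the Tem1WT/WT sham group and 3 without replicate 1 of the Tem1WT/WT traction group. It had 1 with at least 10 counts in every library and 1 with a fit that was not robust. Without replicate 2 of the Tem1WT/WT traction group, 2 epidermis genes, 2 cell division genes and 1 dermal papilla gene were called lower. Without replicate 1 of that group 1 epidermis gene was called lower, and without replicate 3 of it 1 dermal papilla gene was called higher. With the replicate block, 2 dermal papilla genes and 1 epidermis gene were called lower. Without replicate 3 of the Tem1WT/WT sham group, 1 wound-edge keratin was called higher. In all of these lists each gene had counts, and the part of these cell types in the lower share of hair genes was not tested.

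The lowest Tem1lacZ/lacZ sham scar, replicate 1, had the lowest summed melanocyte level of that group, 78.9 CPM against 278 and 504, and the lowest summed level of cell division genes, 342 CPM against 800 and 811. Its interfollicular epidermis genes summed to 21295 CPM, near the 24294 and 22948 CPM of the other scars of the group. Its summed sebaceous gland level was the highest of the group, 4813 CPM against 2787 and 2106. The same held for the bulge and isthmus genes, at 3327 CPM against 3286 and 2499. The part of these differences in its low hair gene levels was not tested, and the phase of the hair cycle at sampling is not given in the sources used here.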

How the data were processed

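RNA-seq of 12 mouse scars was analysed. The authors trimmed paired-end reads with fastp (0.20.0), aligned them to GRCm38 with HISAT2 (2.1.0) and counted them on genes with featureCounts (2.0.0). The deposited values are raw counts per gene. Which annotation, which strand setting and what rule for multiply aligned reads were used is not given in the sources used here.

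In R 4.3.3, counts were filtered with edgeR 4.0.16 (filterByExpr by group), normalized by TMM and tested by its robust quasi-likelihood method, all 4 groups in 1 model (8 residual degrees of freedom), two-sided, with Benjamini-Hochberg adjustment over 18853 genes. DESeq2 1.42.0 (the study's tool) and voom in limma 3.58.1 were alternatives. Standard errors in edgeR were taken as the absolute log2 fold change over the square root of the test's F statistic. They are thus not a measure of spread apart from the test. log2 CPM used a prior count of 2. Exon lengths, and the 150-base windows compared for shared sequence, came from GENCODE; promoters came from RefSeq. Figures used matplotlib 3.10.9. The test was first tested on simulated data.

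The members, lists and alternatives were chosen with earlier results of these data known. By rule, the 2 members of each role with the highest mean CPM and up to 5 further members with the smallest adjusted p per comparison were named, others as stated. Libraries were deposited as separate mice, and no pair within a group was a copy. Of lists, at most the 2 highest genes were named.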

Additional observations from a re-analysis of the deposited data

How the results depend on the processing

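With traction in Tem1WT/WT mice, 11 of the 30 genes were called. The count was 3 when all genes with at least 1 count were tested, 28 with DESeq2, 2 with limma-voom and 0 with only the 6 libraries compared (28 at an unadjusted p under 0.05), and between 0 and 24 without each library in turn. The share of all genes at an unadjusted p under 0.05 with only the 6 libraries was not worked out. In Tem1lacZ/lacZ against Tem1WT/WT traction DESeq2 called 16 genes instead of 0. The causes were not tested, except that the first setting tests 28591 genes. The remaining settings kept the count within 1.5 times of 11, and the other comparisons stayed at 0 calls. Upper quartile normalization moved the median of all genes by more than 0.1, to −0.12.

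The log2 fold change of Tgm3 with traction in Tem1WT/WT mice, 0.00, was −0.00819 without the filter, −0.0253 with at least 10 counts in every library, −0.12 with upper quartile normalization, −0.38 with limma-voom, −0.0871 with the replicate block, and −0.57 to 0.24 without each library. Against Tem1lacZ/lacZ mice with traction it was −0.35 to 0.62 without each library.

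Replicate numbers were not treated as pairs, and 3 same-numbered pairs per comparison cannot decide whether they are. For traction against sham, the deviations of same-numbered scars correlated at −0.000322 to 0.115 in Tem1WT/WT mice, against −0.126 to 0.0719 between different numbers. In Tem1lacZ/lacZ mice these were −0.324 to 0.0309 against −0.403 to 0.373. Between the genotypes with sham they were 0.0308 to 0.250 against −0.249 to 0.00659, so each same-numbered pair lay above the others. With traction they were 0.0205 to 0.103 against −0.190 to 0.0860. With the replicate block 12 genes were called, of which 10 were among the 11. Each group has 3 mice, which limits the precision, and depth adds to this in the genes with few counts, Krt74, Krt39 and Krt40.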
